A study of Mus musculus with 9 samples.

Results

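The NF-kB subunit genes Nfkb1, Nfkb2, Rel, Rela and Relb encode the proteins that pair up to form the transcription factor NF-kB. Every probe set that the platform annotation assigns to 1 of these 5 symbols was taken, whatever its values. This gave 5 of the 22690 probe sets on the array, for 4 genes: 2 for Nfkb2 and 1 each for Relb, Rela and Rel. Below, Nfkb2 stands for the probe set 1425902_a_at, and the other is called the second Nfkb2 probe set. No probe set carried the symbol Nfkb1 alone in the annotation used, so Nfkb1 was not analysed here. All 5 probe sets passed the filter on low values, a log2 value of 6 on at least 1 array, together with 16746 probe sets in all.

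Total RNA came from peritoneal macrophages of mice injected with thioglycollate, an irritant that draws macrophages into the peritoneal cavity. The mice lacked MyD88 (MyD88 KO), lacked TRIF (TRIF KO) or were wild type, and the cells of each genotype were left unstimulated (0 h) or received 100 ng/ml lipopolysaccharide (LPS) for 1 h or 4 h. MyD88 and TRIF are the adaptor proteins that carry signals from Toll-like receptor 4, which senses LPS. The 9 groups had 1 array each, and the design asks how the response to LPS depends on either adaptor. All groups share the thioglycollate injection. The sources used here do not give the age, sex or strain background of the mice, or whether animals were pooled.

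In resting cells, NF-kB dimers are held in the cytoplasm by inhibitory IkB proteins. Signals from Toll-like receptors activate the IKK kinases, which mark IkB for degradation, and the freed dimers of p50, RelA (p65) or c-Rel enter the nucleus and switch on inflammatory genes. Nfkb2 and Relb belong to the slower, noncanonical arm: Nfkb2 encodes p100, which holds back RelB until it is processed to p52. Rela, Relb and Rel carry the domains that activate transcription, while p50 and p52 do not. In macrophages LPS is a classical activator of this system, and several NF-kB subunits and inhibitors are themselves known targets of NF-kB.

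The promoters of 2 of these genes are shown because both hold stretches that match the kappaB consensus, the sequence NF-kB binds. The RefSeq table (build GRCm38.p6) held promoter windows for 3 of the 5 genes, Nfkb2 with 3 start sites and Rela and Rel with 1 each. The 250 bases before the start are printed 5′ to 3′ on the strand of the gene, and capitals mark bases that match the kappaB consensus on either strand, overlapping matches included. The Nfkb2 window is chr19:46304487-46304736 on the plus strand and the Rel window is chr11:23770970-23771219 on the minus strand.
Nfkb2 promoter, first start site: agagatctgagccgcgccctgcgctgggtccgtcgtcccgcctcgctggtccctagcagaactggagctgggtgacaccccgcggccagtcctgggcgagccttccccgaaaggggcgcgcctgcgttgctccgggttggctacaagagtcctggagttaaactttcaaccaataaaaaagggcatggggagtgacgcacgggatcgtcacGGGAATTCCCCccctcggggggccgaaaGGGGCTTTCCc
Rel promoter: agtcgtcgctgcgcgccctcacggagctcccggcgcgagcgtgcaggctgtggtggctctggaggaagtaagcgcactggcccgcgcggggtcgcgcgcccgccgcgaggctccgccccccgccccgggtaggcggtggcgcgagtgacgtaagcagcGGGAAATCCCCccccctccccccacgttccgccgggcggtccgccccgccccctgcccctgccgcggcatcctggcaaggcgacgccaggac
The first Nfkb2 window held GGGAATTCCC, which reads the same on both strands, 39 to 30 bases before the start, with the overlapping match GGAATTCCCC. It held another match, GGGGCTTTCC, 11 to 2 bases before the start. The windows of the other Nfkb2 start sites held 1 match each, GGAATGTCCC and GGGACTTTCC. The Rel window held GGGAAATCCC 92 to 83 bases before its start, with the overlapping GGAAATCCCC. The same 250 bases of Rela, chr19:5637291-5637540 on the plus strand, had no such match, which says only that these letters are not in this window. Among 32851 RefSeq promoters, 7.25% held a kappaB match in these 250 bases. On either strand 11 promoters (0.0335%) held GGGAATTCCC and 31 (0.0944%) held GGGAAATCCC. The other matches named here were held by 22 to 46 promoters. These sequences were picked from the windows themselves, so their small shares are not a test of these promoters. Each share is per window, and Nfkb2 had several. G and C made up 64.8% of the first Nfkb2 window and 77.6% of the Rel window. Relb and Nfkb1 are named only.

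The arrays had medians between 7.01 and 7.07 (log2) and correlated with each other at 0.971 to 0.996 across probe sets. All 12 macrophage markers reached log2 = 6 on at least 1 array, with a summed linear level of 58620 to 61210 in MyD88 KO, 61910 to 64850 in TRIF KO and 60710 to 65180 in wild type. Markers of fibroblasts and mesothelium summed to 1145 to 1217, 1052 to 1223 and 866 to 904 in the same order, with Lum, Msln and Wt1 of 10 not reaching log2 = 6, and those of B cells to 2111 to 2313, 1977 to 2060 and 2134 to 2493, with Pax5 and Fcrla of 9 not reaching it. Dendritic cell markers summed to 1383 to 1503, 1353 to 1442 and 1303 to 1331, with Xcr1 and Dpp4 of 8 not reaching it. In bulk RNA, fewer cells of a type and less RNA per cell cannot be told apart. The 3′ minus 5′ control probe sets differed by -0.13 to -0.01 for Actb and by 0.09 to 0.24 for Gapdh. The mean of 12 reference transcripts differed by -0.12 (log2) between the 1 h and 0 h arrays of wild type and by -0.06 to 0.02 for the other stimulated arrays.

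The targeted gene Myd88 (1419272_at) lay between 9.19 and 9.34 (log2) on the MyD88 KO arrays, between 9.54 and 9.96 on the TRIF KO arrays and at 9.57 or above on the wild-type arrays. It was lowest in MyD88 KO at each time. The sources used here do not say where its probes lie relative to the deletion, and probes outside the deleted part check nothing. No probe set was named for Ticam1 alone, the gene for TRIF, and it is not analysed here.

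**Figure D1:**
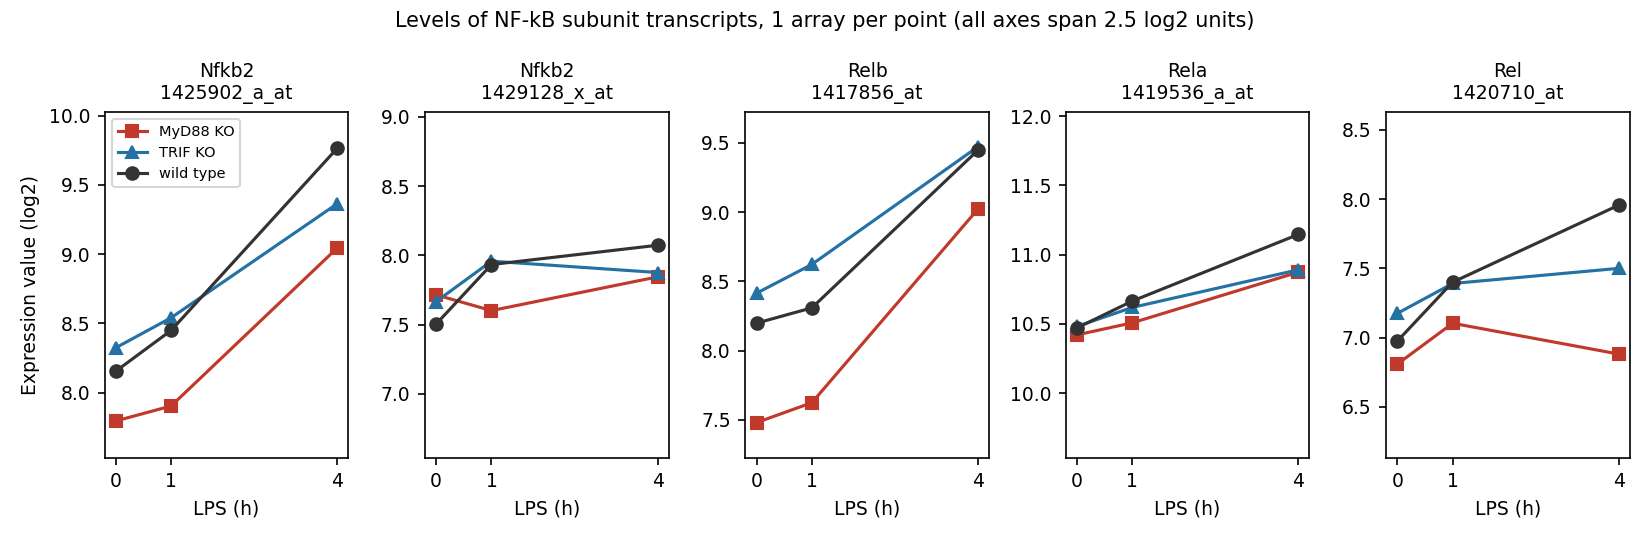
Deposited log2 expression values (y axis) of the 5 probe sets at 0, 1 and 4 h of LPS (x axis), with 1 array per point and genotypes by colour and symbol; every y axis spans 2.5 log2 units. Nfkb2, Relb and Rela stand highest at 4 h in all 3 genotypes, while Rel at 4 h reads 6.88 in MyD88 KO, 7.50 in TRIF KO and 7.96 in wild type.

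Nfkb2 and Relb, the noncanonical partners, were the subunit genes with the largest differences after 4 h of LPS. For Nfkb2 this holds for the first probe set only, as the second rose by 0.30 and was not called. At 1 h the largest fitted difference was that of Rel (0.31), also not called. After 4 h of LPS Nfkb2 and Relb rose more than 2-fold over the genotypes, and Rela rose by less. Rel was nearly 2-fold higher at 4 h in wild type, while its level in MyD88 KO at 4 h was close to the unstimulated one. Both Nfkb2 and Relb were lower in MyD88 KO than in wild type at every time, before LPS included. The second Nfkb2 probe set was higher in MyD88 KO at 0 h and did not pass the test. No subunit gene passed the test over all times in TRIF KO, where all but Relb were below wild type at 4 h.

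Nfkb2 (1425902_a_at, chromosome 19), whose product p100 is the precursor of p52, read 7.80, 7.90 and 9.04 (log2) in MyD88 KO at 0, 1 and 4 h, 8.32, 8.54 and 9.36 in TRIF KO, against 8.15, 8.45 and 9.76 in wild type. Every 4 h array lay above every 0 h and 1 h array, and the 3 lowest arrays were both early MyD88 KO arrays and the unstimulated wild type. Relb (1417856_at, chromosome 7), which encodes the main partner of p52, read 7.48, 7.62 and 9.02 in MyD88 KO, 8.41, 8.62 and 9.47 in TRIF KO, against 8.20, 8.31 and 9.45 in wild type. The 4 h arrays of Relb also stood apart from all others, and TRIF KO was highest at each time. Rela (1419536_a_at, chromosome 19), which encodes the activating subunit of the classical p50 and p65 dimer, read 10.42, 10.51 and 10.87 in MyD88 KO, 10.48, 10.62 and 10.89 in TRIF KO, against 10.47, 10.66 and 11.14 in wild type. Its 4 h arrays were again above all others, within a total range of only 0.72. Such a separation of the 4 h arrays from all earlier ones was seen for 796 of all 16746 probe sets (4.75%).

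The second Nfkb2 probe set (1429128_x_at, a type whose probes may also bind other transcripts) did not follow the first. It read 7.72, 7.60 and 7.84 in MyD88 KO, 7.67, 7.96 and 7.88 in TRIF KO, against 7.50, 7.93 and 8.07 in wild type. The times and the genotypes overlapped, and the 9 arrays spanned 0.57, against 1.97 for the other Nfkb2 probe set. Rel (1420710_at, chromosome 11), which encodes c-Rel, a subunit known from lymphocytes and macrophages as an activator of cytokine genes, read 6.81, 7.10 and 6.88 in MyD88 KO, 7.18, 7.39 and 7.50 in TRIF KO, against 6.97, 7.40 and 7.96 in wild type. The wild-type 4 h array was the highest for Rel and the MyD88 KO 4 h array the second lowest, so the times overlapped.

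With 1 array per group there is no replicate spread. The residual SD of the fit described below mixes noise with any difference in LPS response between genotypes. It is therefore not a measure of replicate spread, and the steps below are set against it for scale only. The residual SD was 0.16 for Nfkb2, 0.16 for the second Nfkb2 probe set, 0.15 for Relb, 0.0755 for Rela and 0.25 for Rel. When the 9 levels were put in order, 5 of the 8 steps between neighbours exceeded the residual SD for Nfkb2, 4 for Relb, 3 for Rela, 1 for Rel and 0 for the second Nfkb2 probe set. The largest step of Nfkb2, 0.50, lay between the highest early array, TRIF KO at 1 h, and the lowest 4 h array, MyD88 KO. For Relb the largest step, 0.57, lay between the early MyD88 KO arrays and the unstimulated wild type. The only step of Rel beyond the residual SD, 0.46, set the wild-type 4 h array above the TRIF KO 4 h array.

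The differences between the 4 h and 0 h arrays of a genotype were 1.25 in MyD88 KO, 1.04 in TRIF KO and 1.61 in wild type for Nfkb2, or 2.38-, 2.06- and 3.05-fold. For Relb they were 1.54, 1.06 and 1.25 in the same order (2.91-, 2.08- and 2.38-fold), so that MyD88 KO had the largest difference from the lowest starting level. Rela differed by 0.45, 0.41 and 0.68, and the second Nfkb2 probe set by 0.13, 0.21 and 0.57. Rel differed by 0.07 in MyD88 KO, 0.33 in TRIF KO and 0.98 in wild type, the last just under 2-fold and 1.04 when arrays were centred on the reference transcripts. All 5 probe sets were higher at 4 h than at 0 h in all 3 genotypes, as were 17.6% of all probe sets.

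At least 2-fold higher at 4 h were 2 members in each genotype, Nfkb2 and Relb, beside 0.46% of all probe sets in MyD88 KO, 0.388% in TRIF KO and 1.23% in wild type. The median 4 h difference of the members was 0.45, 0.41 and 0.98 in MyD88 KO, TRIF KO and wild type, against -0.04, -0.01 and 0.01 over all probe sets. At 1 h no member was 2-fold higher in any genotype, beside 0.0717%, 0.119% and 0.185% of all probe sets. The differences at 1 h were 0.11, 0.22 and 0.29 for Nfkb2, 0.14, 0.21 and 0.11 for Relb and 0.09, 0.14 and 0.19 for Rela. Rel differed by 0.30, 0.22 and 0.43 at 1 h. Centring on the reference transcripts, which were lower on the wild-type 1 h array, moved the wild-type differences at 1 h to 0.41 for Nfkb2, 0.23 for Relb, 0.31 for Rela and 0.54 for Rel. With it the 1 h difference of Relb was 0.13 in MyD88 KO and 0.22 in TRIF KO, so wild type held the highest of the 3 values in place of the lowest. In MyD88 KO the 1 h difference of Rel was therefore larger than its 4 h difference, and in TRIF KO and wild type it was smaller. The 4 h and 1 h differences of a genotype share the unstimulated array.

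**Figure D2:**
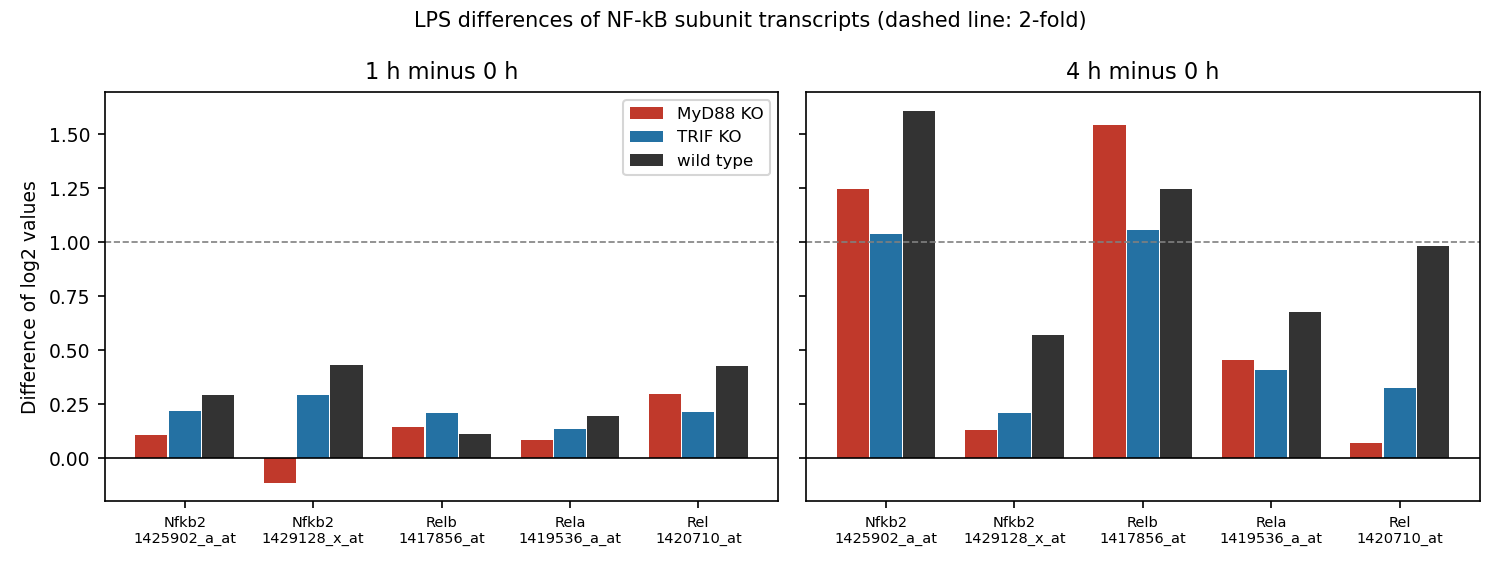
Differences of log2 values (y axis) between the 1 h or 4 h array and the unstimulated array of the same genotype for each probe set, 1 array on each side; the dashed line marks 2-fold. At 4 h Nfkb2 and Relb pass the line in all genotypes, and Rel reaches 0.07 in MyD88 KO, 0.33 in TRIF KO and 0.98 in wild type.

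Tests used limma, with genotype and time as terms over all 9 arrays and Benjamini-Hochberg adjustment over the 16746 probe sets, and a probe set was called where its adjusted p was under 0.05. Arrays of different genotypes thus stood in as replicates for a time, and arrays of different times for a genotype. The labels do not say that arrays came from separate animals or cultures, so the p-values cover the spread among these 9 arrays alone, which may be technical. The error term of this fit also holds any difference in LPS response between genotypes. At 4 h against unstimulated cells Nfkb2 rose by 1.30 ± 0.0976 (SE, log2; 2.46-fold; limma, adjusted p = 1.22e-05) and Relb by 1.28 ± 0.0942 (limma, adjusted p = 1.14e-05). Rela rose by 0.51 ± 0.0701 (limma, adjusted p = 0.000853). These 3 calls held under all 19 alternative settings tried. Rel, at 0.46 ± 0.136 (limma, adjusted p = 0.0528), and the second Nfkb2 probe set, at 0.30 ± 0.0992 (limma, adjusted p = 0.0796), did not pass. Rel passed without the MyD88 KO 4 h array (0.65, limma, adjusted p = 0.00424) or the MyD88 KO 0 h array (limma, adjusted p = 0.0351), and under 4 other settings. Its difference dropped to 0.23 without the wild-type 4 h array (limma, adjusted p = 0.247) and to 0.30 without the wild-type 0 h array (limma, adjusted p = 0.234). Its adjusted p ranged from 0.00403 to 0.313 over the alternatives. The second Nfkb2 probe set passed without the MyD88 KO 0 h array (limma, adjusted p = 0.0139) or without all MyD88 KO arrays.

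Thus 3 of 5 members were called higher at 4 h and 0 lower, beside 4.69% of all probe sets called higher and 5.82% lower. Over all probe sets that is 786 higher and 975 lower, and 817 higher and 633 lower after centring on the reference transcripts. The same 3 were called higher at 4 h than at 1 h, by 1.09 for Nfkb2, 1.13 for Relb and 0.37 for Rela (limma, adjusted p = 7.49e-05, 4.32e-05 and 0.00654), beside 3.81% of all probe sets. The call for Rela was lost without the wild-type 1 h array, and those for Relb and Rela without a genotype term (limma, adjusted p up to 0.0694 for Relb and 0.0547 for Rela). At 1 h against unstimulated cells limma called 0 of 5 members, beside 0.221% of all probe sets called higher. The fitted 1 h differences lay between 0.14 for Rela and 0.31 for Rel, each with an adjusted p of 0.905 (limma), and 1 member, Rel, had an unadjusted p under 0.05. No other tool was run.

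**Figure D3:**
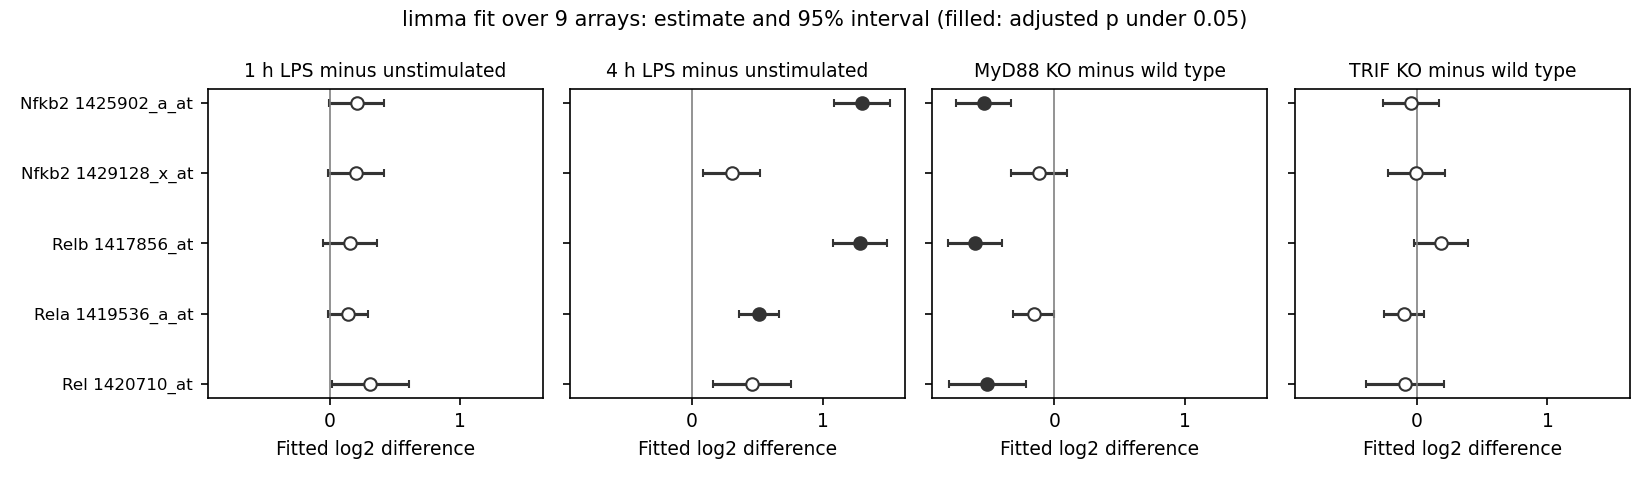
Fitted log2 differences (x axis, points) with 95% intervals (bars) from limma over 9 arrays for each probe set, for 1 h and 4 h of LPS against unstimulated cells, and for MyD88 KO and TRIF KO against wild type over all times; filled points have an adjusted p under 0.05. Filled points are seen for 3 probe sets at 4 h and 3 in MyD88 KO, and for none at 1 h or in TRIF KO.

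Differences from wild type were next taken at each time. The wild-type arrays are shared by both sets of differences. Relb was lower in MyD88 KO at all times, with differences of -0.72, -0.68 and -0.43 at 0, 1 and 4 h. Nfkb2 differed by -0.36, -0.55 and -0.72 and Rela by -0.05, -0.16 and -0.27. Rel differed by -0.17 and -0.30 at 0 and 1 h and by -1.08 at 4 h, where MyD88 KO had 0.475 of the wild-type level. It was the only member at least 2-fold lower in MyD88 KO at 4 h, beside 0.531% of all probe sets. At 0 and 1 h no member passed that fold, beside 0.161% and 0.233%. Nfkb2, Relb, Rela and Rel were below wild type at 3 of 3 times, as were 16.1% of all probe sets, and below TRIF KO at 3 of 3 times, as were 20.8%. The second Nfkb2 probe set differed from wild type by 0.21, -0.33 and -0.23.

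In TRIF KO the unstimulated levels were close to wild type or above it, with differences at 0 h of 0.17 for Nfkb2, 0.22 for Relb, 0.01 for Rela and 0.20 for Rel. At 1 h the same genes differed by 0.09, 0.31, -0.05 and -0.01, and after centring on the reference transcripts Nfkb2 by 0.01, Rela by -0.13 and Rel by -0.09. At 4 h they differed by -0.40, 0.02, -0.25 and -0.46, so that all but Relb were below wild type. The second Nfkb2 probe set differed by 0.16, 0.02 and -0.20 at 0, 1 and 4 h, with the 1 h value at -0.06 after centring. No member was 2-fold lower in TRIF KO at 0, 1 or 4 h, beside 0.0597%, 0.0717% and 0.287% of all probe sets.

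**Figure D4:**
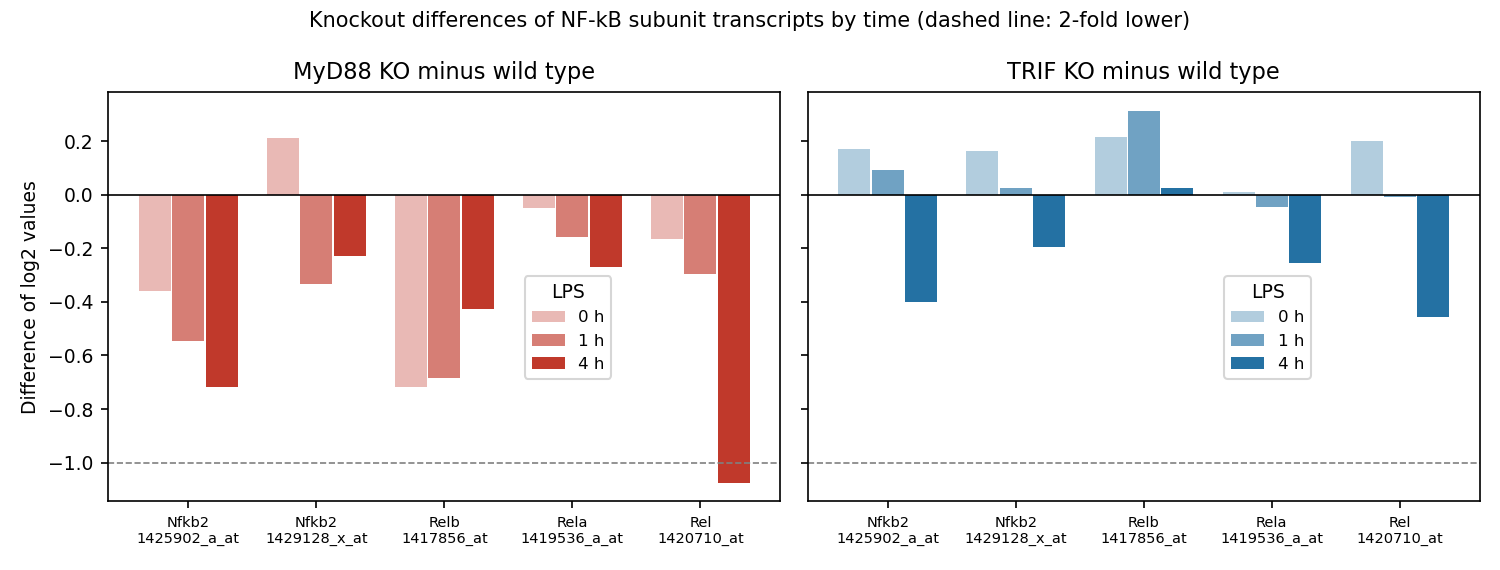
Differences of log2 values (y axis) between a knockout and the wild-type array at 0, 1 and 4 h of LPS (light to dark bars) for each probe set, 1 array on each side; the dashed line marks 2-fold lower. Relb lies between -0.72 and -0.43 in MyD88 KO at all times, and Rel passes the line in MyD88 KO at 4 h (-1.08).

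Over all times limma called 3 of 5 members lower in MyD88 KO than in wild type and 0 higher, beside 2.69% of all probe sets called lower and 3.88% higher. Over all probe sets that is 650 higher and 450 lower, and 342 higher and 525 lower after centring on the reference transcripts. Relb fell by 0.61 ± 0.0942 (SE, log2; limma, adjusted p = 0.00312) and Nfkb2 fell by 0.54 ± 0.0976 (limma, adjusted p = 0.00729). Both calls were lost without a time term and without the 1 h arrays, with adjusted p up to 0.639 and 0.675. Rel fell by 0.51 ± 0.136 (limma, adjusted p = 0.0454), and its call was lost under 12 of 19 alternatives. Among these were leaving out the wild-type array at 1 h or 4 h, the MyD88 KO array at 1 h or 4 h, or any TRIF KO array. Leaving out the MyD88 KO 4 h array gave -0.32 and the wild-type 4 h array -0.28, with a smallest difference of -0.23 without the 4 h arrays and adjusted p of 0.0122 to 0.383. Rela, at -0.16 (95% interval -0.31 to -0.01; limma, adjusted p = 0.229), and the second Nfkb2 probe set, at -0.12 (-0.33 to 0.10; limma, adjusted p = 0.577), did not pass. The summed macrophage markers were lower in MyD88 KO than in wild type at each time and those of fibroblasts and mesothelium higher, within the ranges given above. The summed dendritic cell markers were higher in MyD88 KO at each time as well. Neutrophil markers had lower sums, 1693 to 1921 in MyD88 KO against 1823 to 2062 in wild type, with S100a9 of 9 not reaching log2 = 6. The list medians ran against the sums for dendritic markers at 4 h (6.281 in MyD88 KO against 6.409). They also did so for neutrophil markers at 0 h (6.735 against 6.489), and ran with the sums at the other times. Clec10a had the largest 4 h difference on the dendritic list, 8.503 in MyD88 KO against 7.849 in wild type. Cd209a (6.245 against 6.127) and Itgae (6.082 against 6.074) were also higher. Flt3 (7.918 against 8.042), Fscn1 (8.916 against 8.938) and Zbtb46 (6.317 against 6.691) were lower, each by its probe set with the highest mean. So were Xcr1 and Dpp4, neither of which reached log2 = 6. B cell markers had lower list medians in MyD88 KO than in wild type at each time (6.971, 7.078 and 7.073 against 7.525, 7.332 and 7.345). Their sums were lower at 0 and 4 h but not at 1 h (2313 against 2308). The part of these markers in the differences was not tested.

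In TRIF KO limma called 0 of 5 members over all times, beside 1.06% of all probe sets called higher and 0.418% lower, and 0 members had an unadjusted p under 0.05. The difference from wild type was 0.18 for Relb (95% interval -0.02 to 0.39), -0.05 for Nfkb2 (-0.26 to 0.17), -0.10 for Rela (-0.25 to 0.06) and -0.09 for Rel (-0.39 to 0.21). The summed fibroblast and mesothelial markers and the summed dendritic cell markers were also higher in TRIF KO than in wild type at each time. The dendritic list median, however, was lower in TRIF KO at 0 h (6.198 against 6.256) and 4 h (6.266 against 6.409). At 1 h it was 6.305 against 6.301. The summed B cell markers were lower in TRIF KO at each time (2060, 1977 and 1982 against 2493, 2308 and 2134 in wild type). Their list medians were lower at each time as well. The part of these markers in the differences from wild type was not tested. Between the knockouts, 2 of 5 members were called lower in MyD88 KO than in TRIF KO, beside 1.34% of all probe sets. Relb differed by -0.79 (limma, adjusted p = 0.000905), a call lost without a time term and without the 1 h arrays. Nfkb2 differed by -0.49 (limma, adjusted p = 0.0232). Its call was lost under 9 of 19 alternatives, which include leaving out the MyD88 KO array at 1 h or 4 h, the TRIF KO array at 0 h or 1 h, or the wild-type array at 1 h. Rel differed by -0.42 (limma, adjusted p = 0.194) and passed without the wild-type 4 h array (limma, adjusted p = 0.0163), while without the MyD88 KO 4 h array the difference was -0.23 (limma, adjusted p = 0.7).

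Whether the response to LPS itself differed between genotypes was taken from the difference of the differences. The 4 h minus 0 h difference of Rel was lower than in wild type by 0.91 (log2) in MyD88 KO and by 0.66 in TRIF KO, the largest gap of the members in each knockout. For Nfkb2 the gap to wild type was -0.36 in MyD88 KO and -0.57 in TRIF KO. For Rela it was -0.22 and -0.27. For Relb it was 0.29 in MyD88 KO and -0.19 in TRIF KO, so only Relb had a larger difference in MyD88 KO than in wild type. No gap reached 2-fold, beside 0.305% of all probe sets with a gap of at least 2-fold lower in MyD88 KO and 0.215% in TRIF KO.

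In a limma fit with a term for LPS within each knockout, which left 2 residual degrees of freedom, 0 members were called for either knockout against wild type or for MyD88 KO against TRIF KO. Over all probe sets 0.0179% were called higher and 0.0239% lower for MyD88 KO against wild type, where 3164 had an unadjusted p under 0.05. For the other 2 comparisons 0 were called, and 1024 and 922 had an unadjusted p under 0.05. The response of Rel, averaged over 1 h and 4 h, differed from wild type by -0.52 in MyD88 KO (95% interval -1.10 to 0.06; limma, adjusted p = 0.303) and by -0.43 in TRIF KO (-1.02 to 0.15; limma, adjusted p = 0.804). With a term for 4 h alone the differences of Rel were -0.84 (limma, adjusted p = 0.0644) and -0.55 (limma, adjusted p = 0.609). Without the wild-type 1 h array Rel passed for MyD88 KO, at -0.83 (limma, adjusted p = 0.0364). The MyD88 KO difference was -0.24 when the MyD88 KO 4 h array was left out (limma, adjusted p = 0.572) and -0.21 when the 4 h array of wild type was (limma, adjusted p = 0.441). For TRIF KO it was -0.74 without the wild-type 1 h array (limma, adjusted p = 0.14) and -0.13 without the wild-type 4 h array (limma, adjusted p = 0.786). Relb differed by 0.16 in MyD88 KO (-0.29 to 0.62; limma, adjusted p = 0.668). The only member with an unadjusted p under 0.05 was the second Nfkb2 probe set in MyD88 KO, at -0.49 (-0.84 to -0.14; limma, adjusted p = 0.189). These intervals are wide, and a p that misses the threshold does not show that the genotypes responded alike.

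All pairs of members correlated positively, to differing degrees. Over the 9 arrays, Nfkb2 correlated with Relb at 0.968 and with Rela at 0.969, and Relb with Rela at 0.884. Rel correlated with the other 4 probe sets at 0.67 to 0.738, and the pair of Nfkb2 probe sets with each other at 0.746. These correlations describe 9 arrays that share the same 3 times and genotypes. Among 575 probe sets with 1 gene, past the filter and spanning at least 1 (log2), the closest to Nfkb2 by Pearson correlation were Ehd1 (0.997), Ralgds (0.996) and Ptprj (0.993). The closest to Relb were the membrane metalloproteinase Mmp14 (0.992), the lipoprotein receptor Tlr2 (0.984) and the transporter Abcc1 (0.983). Those closest to Rela were Phldb1 (0.982), the thioredoxin reductase Txnrd1 (0.979) and the kinase Mapkapk2 (0.978), and to Rel the chemokine Ccl3 (0.970), the prostaglandin synthase Ptgs2 (0.952) and the inflammasome protein Mefv (0.942). Ptgs2 lay below log2 = 6 on 6 of the 9 arrays, those of MyD88 KO among them, and passed the filter through the TRIF KO 4 h array and the wild-type 1 h and 4 h arrays. At 0 and 4 h, Ccl3 read 8.96 and 8.62 on the MyD88 KO arrays, 9.23 and 10.56 in TRIF KO, and 8.73 and 11.53 in wild type.

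Genes that act on the subunits were described by the same fit, each by its probe set with the highest mean. Of 12 IkB proteins and inhibitors tested, 7 were higher at 4 h and 1 lower, beside 4.69% and 5.82% of all probe sets, with a median difference of 0.66 against -0.01 over all probe sets. Nfkbie, which encodes IkB-epsilon, rose by 1.77 (limma, adjusted p = 1.42e-05), Nfkbiz, which encodes the nuclear cofactor IkB-zeta, by 1.76, the A20-binding protein gene Tnip1 by 1.05 and Tnfaip3, which encodes A20, by 0.70. The lower gene was Pdlim2, an adaptor for the breakdown of nuclear RelA, which fell by 0.32 and is named because it was the only one. At 1 h 3 were higher, beside 0.221% of all probe sets called higher. The 3 were Nfkbia, which encodes IkB-alpha, Tnfaip3 and Nfkbiz, named for the small count after their values were seen. In MyD88 KO 5 of the 12 were lower than in wild type, beside 2.69% of all probe sets called lower. The differences were -2.43 for Nfkbiz, -1.07 for Nfkbie, -0.70 for Tnfaip3 and -0.51 for both Nfkbia and Tnip1. In TRIF KO 0 of the 12 passed, beside 1.06% of all probe sets called higher and 0.418% lower. Like Relb, Nfkbie started lower in MyD88 KO (5.99, 6.47 and 8.03 at 0, 1 and 4 h) than in TRIF KO (7.27, 7.70 and 8.51) and wild type (7.06, 7.54 and 9.08). The MyD88 KO 0 h levels of Nfkbie and of Nfkbiz (5.92) lay below the filter value of log2 = 6, while that of Relb (7.48) did not. The MyD88 KO differences of Nfkbie and Nfkbiz thus rest in part on a level below the filter.

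Of 19 genes of the IKK complex and the signalling above it, 4 were higher at 4 h and 0 lower, beside 4.69% and 5.82% of all probe sets. None passed at 1 h, beside 0.221% of all probe sets called higher. In TRIF KO none passed either, beside 1.06% of all probe sets called higher and 0.418% lower. The median 4 h difference of the 19 genes was 0.07, against -0.01 over all probe sets. The 4 were Birc3, a ubiquitin ligase of the TNF receptor complex (1.08; limma, adjusted p = 1.19e-05), the kinase gene Ikbke (0.90), its partner Tbk1 (0.26) and the adaptor Traf2 (0.42). In MyD88 KO 3 were lower, beside 2.69% of all probe sets, the kinase gene Map3k8, whose product binds p105 (-0.69; limma, adjusted p = 0.00162), Birc3 (-0.59) and Ikbke (-0.36), the last named because of the small count. None of the 10 genes for p105 and p100 processing and IkB degradation, and none of the 9 chromatin and cofactor genes, passed in any of the 4 comparisons, 1 h, 4 h, MyD88 KO and TRIF KO. Their median 4 h differences were 0.02 and -0.05. The shares of all probe sets called in these comparisons are those given above.

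Of 26 known NF-kB target genes tested, 17 were higher at 4 h and 0 lower, beside 4.69% and 5.82% of all probe sets. In MyD88 KO 12 were lower than in wild type over all times and 0 higher, beside 2.69% and 3.88%. At 1 h 5 were higher, beside 0.221% of all probe sets called higher. The 5 were Cxcl2, Tnfsf9, Tnf, Ier3 and Cd83, named for the small count. None passed in TRIF KO, beside 1.06% of all probe sets called higher and 0.418% lower. The median difference of the targets was 1.08 after 4 h of LPS, -0.70 in MyD88 KO and -0.25 in TRIF KO. Over all probe sets these medians were -0.01, -0.00 and 0.01. The chemokine Cxcl2 rose by 2.71 and Cxcl1 by 2.47 at 4 h, the adhesion molecule Icam1 by 2.20 and the chemokine Ccl5 by 2.10 (limma, adjusted p = 2.93e-05, 0.00997, 5.39e-06 and 0.0149). In MyD88 KO Cxcl2 fell by 2.52 and Cxcl1 fell by 2.38 relative to wild type (limma, adjusted p = 6.08e-05 and 0.0187). Between single arrays at 4 h and 0 h, Icam1 was higher by 2.32 in MyD88 KO, 1.65 in TRIF KO and 2.64 in wild type, while Cxcl1 was higher by 0.22, 2.95 and 4.25. Cxcl1 lay below log2 = 6 on all 3 unstimulated arrays (5.11 in MyD88 KO, 5.33 in TRIF KO and 5.19 in wild type) and at 5.33 in MyD88 KO at 4 h, so it passed the filter through stimulated arrays and its differences are set against levels below that floor. Ccl5 was higher at 4 h by 2.03 in MyD88 KO, 0.455 in TRIF KO and 3.802 in wild type, with 4 h levels of 9.63, 7.56 and 11.48.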

How the data were processed

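RNA of 9 samples was hybridised to Affymetrix arrays, with 1 array per genotype and time. The authors deposited log2 values for 22690 probe sets. The method was RMA, as named in the submitters' processing notes, with no version given there. RMA subtracts background, equalises the distributions of the arrays and combines probes, which can shrink differences of dim transcripts. Values were used as deposited. Of the probe sets, 20393 had 1 gene symbol in the platform annotation, 691 several and 1606 none, and 20364 of the first were found in the RefSeq table. Precision is limited by having only 1 array per group.

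The 16746 probe sets that reached log2 = 6 on at least 1 array were tested with limma 3.58.1 (R 4.3.3; lmFit and eBayes), two-sided, with Benjamini-Hochberg adjustment and a threshold of 0.05. The fit of genotype and time left 4 residual degrees of freedom (prior 7.51), and the fit with LPS within each knockout 2 (prior 6.88). Both were tested on simulated data. Alternatives were no filter, a mean of at least 7, 1 probe set per gene, an eBayes trend, centring on reference transcripts, raising low values to 6, other model terms, 1.5-fold in place of 2-fold and leaving out arrays. Names and promoters come from RefSeq tables of GRCm38.p6, and the deposited values name no genome build.

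The members, the gene lists and the tests were chosen with earlier results of these data known. Named were all member probe sets, the targeted genes, up to 4 called genes of each pathway list with the largest 4 h difference and up to 2 with the largest MyD88 KO difference, and the 3 genes most correlated with each member. The pathway lists were IkB proteins and inhibitors, the IKK complex and upstream signalling, p105 and p100 processing with IkB degradation, chromatin and cofactors, and NF-kB targets. Further marker lists were summed. T and NK cell markers gave 839 to 852 in MyD88 KO, 805 to 852 in TRIF KO and 829 to 886 in wild type. In the same order, neutrophil markers gave 1693 to 1921, 1910 to 2183 and 1823 to 2062, eosinophil markers 219 to 235, 212 to 230 and 231 to 240, and mast cell markers 757 to 786, 749 to 794 and 732 to 813.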

Additional observations from a re-analysis of the deposited data

Results flagged for a closer look

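The following 3 differences ran in the direction opposite to both other genotypes, with 1 array on each side. Rel had a 4 h minus 1 h difference of -0.2223 in MyD88 KO, against 0.11 in TRIF KO and 0.56 in wild type. The second Nfkb2 probe set (1429128_x_at) had a 1 h minus 0 h difference of -0.1135 in MyD88 KO, against 0.29 in TRIF KO and 0.43 in wild type. This probe set had a 4 h minus 1 h difference of -0.08184 in TRIF KO, against 0.24 in MyD88 KO and 0.14 in wild type. None of these 3 differences between genotypes was tested as such, since each rests on single arrays.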

How the results depend on the processing

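No paired analysis was possible because each group had 1 array and the labels carry no replicate number. Without an unstimulated array the LPS response of its genotype could not be fitted and was not run. The number of arrays limits every test, most of all that of the LPS response. Among alternatives for single members, 694 kept direction and side of the threshold, 30 lost the call, 10 gained one and 22 reversed a difference that was not called. Counts stayed within 1.5 times in 609 cases and moved further in 155, and the cause of these moves was not tested. With 1.5-fold in place of 2-fold, members higher at 4 h than at 0 h in wild type were 4 (2.72% of all probe sets), higher at 4 h than at 1 h in TRIF KO 2 (0.836%), lower in MyD88 KO than in wild type 1, 1 and 2 at 0, 1 and 4 h (0.902%, 0.782% and 1.55%), and with a smaller 4 h induction than wild type 1 member in MyD88 KO (1.42%) and 1 in TRIF KO (0.92%). Members called higher at 4 h than at 1 h were 1 without a genotype term. Members called lower in MyD88 KO than in wild type were 0 without a time term, and lower than in TRIF KO 1 with low values raised and 0 without a time term.

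Over all probe sets, raising values to 6 gave 7 higher at 1 h, 281 lower in MyD88 KO, 95 higher and 34 lower in TRIF KO, 63 higher and 116 lower in MyD88 KO against TRIF KO, and 0 and 0 for the LPS response in MyD88 KO. With 1 probe set per gene there were 463 higher at 4 h, 406 higher at 4 h than at 1 h, 269 lower in MyD88 KO, 118 higher and 42 lower in TRIF KO, 138 lower in MyD88 KO than in TRIF KO, and 0 higher for the LPS response in MyD88 KO. Centring on reference transcripts gave 633 lower at 4 h, 342 higher in MyD88 KO, 112 higher in TRIF KO, 81 higher in MyD88 KO than in TRIF KO, and 0 higher and 1 lower for the LPS response in MyD88 KO. Without a genotype term there were 1 higher at 1 h, 257 higher and 220 lower at 4 h, and 146 higher and 143 lower at 4 h than at 1 h. Without a time term there were 111 higher and 38 lower in MyD88 KO, 67 and 26 for TRIF KO, and 26 and 29 in MyD88 KO against TRIF KO. A mean of at least 7 left 1 higher for the LPS response in MyD88 KO. With 4 h alone, the LPS response was higher for 8 and lower for 35 in MyD88 KO, 3 and 25 for TRIF KO, and 12 and 1 between the knockouts, and the difference between the knockouts turned to 0.06903 for Rela and 0.1227 for the second Nfkb2 probe set.

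Leaving out arrays gave 8 to 83 higher and 0 to 5 lower at 1 h, 452 to 810 and 306 to 1182 at 4 h, and 256 to 789 and 253 to 1146 at 4 h against 1 h. It gave 176 to 927 higher and 134 to 483 lower in MyD88 KO, 39 to 277 and 15 to 102 in TRIF KO, and 16 to 166 and 28 to 286 in MyD88 KO against TRIF KO. For the LPS response it gave 2 to 224 and 5 to 188 in MyD88 KO, 0 to 5 and 0 to 12 in TRIF KO, and 0 to 4 and 0 to 11 between the knockouts. Members called ranged from 3 to 5 higher at 4 h, 0 to 3 lower in MyD88 KO, 0 to 3 lower in MyD88 KO than in TRIF KO, and 0 to 1 for a lower LPS response in MyD88 KO. Differences that were not called and turned sign were those at 4 h against 1 h for Rel (-0.0849 to 0.34) and the second Nfkb2 probe set (-0.0146 to 0.19), and in TRIF KO for Rel (-0.25 to 0.14), Nfkb2 (-0.15 to 0.13) and its second probe set (-0.13 to 0.0934). They were also those in MyD88 KO against TRIF KO for the second Nfkb2 probe set (-0.24 to 0.00837), of the LPS response for Relb in MyD88 KO (-0.0388 to 0.36) and TRIF KO (-0.26 to 0.16), and between the knockouts for Rela (-0.0798 to 0.0721), Rel (-0.36 to 0.19) and Nfkb2 (-0.15 to 0.252).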
